A study of Sus scrofa with 21 samples.

Results

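The genes described here encode the GATOR complexes and the amino acid sensors that bind them. They were chosen by name: the GATOR2 subunits MIOS, WDR24, WDR59 and SEC13, the sensors CASTOR1, SESN1 and SESN2, and the GATOR1 subunits DEPDC5, NPRL2 and NPRL3. Of these 10 genes, 9 were matched to an Ensembl gene among the 25880 genes counted, and NPRL2 was not analysed here. RNA from the testis of 21 boars, 13 Landrace and 8 Duroc, was sequenced with 1 library per boar to ask which genes differ with sperm hyperactivity, a vigorous swimming pattern of spermatozoa. In contrast (i), Landrace boars with high hyperactivity on the day of ejaculation, day 0 (L5 to L8), were compared with boars that had low values (L1 to L4). Contrast (ii) set Duroc boars labelled high (D1 to D5) against those labelled low (D6, D7 and D9). Contrast (iii) set Landrace boars whose hyperactivity changed much during liquid storage for 96 h (L7, L13 and L15) against those in which it changed little (L2, L9, L10 and L12), the groups of high and low change. The phenotype was read in the semen, and the RNA came from testis tissue taken later, at slaughter. The labels name no age and no treatment of the boars.

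Cells use mTORC1, a kinase complex on the lysosome, to couple growth to the supply of amino acids. GATOR1 switches off the Rag GTPases that recruit mTORC1, and GATOR2 opposes GATOR1. The sestrins SESN1 and SESN2 sense leucine and CASTOR1 senses arginine, and each holds back GATOR2 when its amino acid is scarce. In the testis, mTORC1 signalling is known for its part in the differentiation of spermatogonia and in the tubule barrier formed by Sertoli cells.

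Counts ranged from 41358671 to 125576407 per library, and no pair of libraries within a group matched within sampling noise. Germ cell and Leydig cell genes marked the tissue as testis: the spermatid gene TNP1 ranged from 3306 to 7904 CPM (counts scaled to library size, with edgeR's TMM normalization), the spermatocyte gene SYCP3 from 289 to 746 CPM and the Leydig cell gene CYP17A1 from 273 to 2632 CPM. Markers of the epididymis reached at most 0.140 CPM, and the Sertoli cell gene AMH had no reads in any library. For 7 of the 8 Duroc boars, matched by name, the group in the published list of boars is the opposite of the deposited label. Lined up by read depth instead, the published and the labelled groups coincide, so the numbering of the boars may be what differs. The labels were used throughout for contrast (ii). In bulk tissue, fewer cells of a type and less RNA per cell cannot be told apart, and each p-value here measures the spread between boars.

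In contrast (i), MIOS was higher in the boars with high hyperactivity, while WDR24, WDR59, SEC13, CASTOR1, SESN2 and NPRL3 were lower. Thus 7 of the 9 genes passed edgeR's quasi-likelihood test at an adjusted p of 0.05, in a contrast where 20.7% of the 12979 genes tested were called. Of all genes tested, 4.82% were called higher, against 1 of the 9 genes, and 15.8% were called lower, against 6 of the 9. Their median log2 fold change was -0.81, and the median over all genes tested was 0.03. For this contrast the paper states the opposite balance of calls, with most of its genes up-regulated in the high group. The read counts it prints for DNLZ, which it names the most up-regulated, are however lower in that group. In these same boars, the study had already reported MIOS, WDR24, WDR59, SEC13, CASTOR1, SESN1 and SESN2 as differentially expressed. Neither the number of calls among these genes nor their direction is therefore independent evidence. All 7 calls were lost when boar L3 or boar L6 was left out, with adjusted p-values from 0.0504 to 0.0823 for these genes without L3 and from 0.0539 to 0.0758 without L6, and 1 gene of the whole table was then called. SEC13 and SESN2 also lost their calls without L1 or L8, and MIOS and SEC13 without L4.

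MIOS, a core subunit of GATOR2 (ENSSSCG00000015343; Sscrofa11.1, chr9:77851764-77892417), stood at 134, 129, 105 and 129 CPM in the low boars L1 to L4 and at 170, 170, 160 and 235 CPM in the high boars L5 to L8. Every high boar lay above every low boar, with L8 highest and L3 lowest. The means were 124 ± 13.1 and 184 ± 34.5 CPM (SD, n = 4 boars each), and the fitted log2 fold change was 0.57 (SE 0.15, edgeR adjusted p = 0.0246).

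WDR24, the GATOR2 subunit with ubiquitin ligase activity (ENSSSCG00000008007; chr3:41085415-41090628), went the other way and changed most among the 9 genes. Its level was 2.55, 2.17, 3.69 and 2.11 CPM in L1 to L4 and 1.07, 0.519, 1.15 and 0.306 CPM in L5 to L8. The groups did not overlap, and the lowest boar, L8, was the one with the most MIOS. The log2 fold change was -1.76 (SE 0.42, edgeR adjusted p = 0.0225). Few reads lie behind these values, from 124 to 310 in the low boars and from 25 to 107 in the high boars, against at least 7293 reads of MIOS in each of the 8 libraries.

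WDR59, a further WD40-repeat subunit of GATOR2 (ENSSSCG00000002714; chr6:12682166-12769339), stood at 8.91, 12.4, 14.7 and 10.1 CPM in L1 to L4 and at 6.37, 5.61, 6.72 and 3.61 CPM in L5 to L8. The high boars again all lay below the low boars, and the log2 fold change was -1.03 (SE 0.25, edgeR adjusted p = 0.0225). SEC13, which serves GATOR2, the COPII coat of transport vesicles and the nuclear pore (ENSSSCG00000011572; chr13:66483620-66524411), was measured at 60.2, 48.3, 49.3 and 62.0 CPM in the low boars and 36.4, 24.4, 42.5 and 20.0 CPM in the high boars. Those groups did not overlap either, with a log2 fold change of -0.81 (SE 0.23, edgeR adjusted p = 0.0347). SEH1L, the remaining GATOR2 subunit, was no member of the set: it had 239 ± 23.0 CPM in the low and 248 ± 23.5 CPM in the high boars (SD, n = 4 each) and a log2 fold change of 0.06 (edgeR adjusted p = 0.723).

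Among the sensors, the arginine sensor CASTOR1 (ENSSSCG00000009998; chr14:47261905-47266729) was at 3.83, 2.92, 6.32 and 3.79 CPM in L1 to L4 and at 1.82, 1.05, 1.96 and 1.05 CPM in L5 to L8. All high boars were below all low boars, and the log2 fold change was -1.49 (SE 0.33, edgeR adjusted p = 0.0209). The leucine sensor SESN2 (ENSSSCG00000029438; chr6:85321982-85348044), a gene induced by stress, had 14.7, 11.9, 20.4 and 13.7 CPM in the low boars and 10.3, 8.52, 8.54 and 6.77 CPM in the high boars. Here too the groups stood apart, by a log2 fold change of -0.81 (SE 0.21, edgeR adjusted p = 0.0266).

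SESN1, a target of p53 (ENSSSCG00000004390; chr1:75056731-75170374), was at 60.3, 67.7, 68.1 and 74.2 CPM in L1 to L4 and at 69.3, 99.2, 86.9 and 106 CPM in L5 to L8. It overlapped between the groups through L5, and its log2 fold change of 0.43 (SE 0.14) missed the threshold (edgeR adjusted p = 0.0511). Under the likelihood ratio test that the study used, which called 26.4% of the genes tested, SESN1 was called as well, which made 8 of the 9 genes. The RefSeq span of SESN1 overlaps 3 other genes, ARMC2 among them, and their part in its counts was not tested. SESN3, a sestrin outside the set, had a log2 fold change of 0.39 (SE 0.14, edgeR adjusted p = 0.0591).

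Of GATOR1, NPRL3 (ENSSSCG00000007981; chr3:41478465-41540719), which pairs with NPRL2 in the part of the complex that acts on the Rag GTPases, was at 3.41, 3.85, 5.12 and 3.24 CPM in L1 to L4 and 1.53, 1.11, 1.92 and 0.551 CPM in L5 to L8. L8 was lowest, as for WDR24, and no high boar reached the lowest low boar. The log2 fold change was -1.59 (SE 0.37, edgeR adjusted p = 0.0219). The span of NPRL3 overlaps 6 other RefSeq genes, including the globin genes HBQ1, HBM and HBZ. HBB, a haemoglobin chain encoded elsewhere and a marker of blood, ranged from 1.58 to 17.9 CPM in the low and from 0.551 to 2.78 CPM in the high boars, with a log2 fold change of -2.53 (edgeR adjusted p = 0.0376), and the part of blood in the NPRL3 result was not tested. DEPDC5, the GATOR1 subunit known for its mutations in familial focal epilepsy (ENSSSCG00000010034; chr14:48421788-48523530), had 29.2, 23.8, 22.4 and 32.3 CPM in the low boars and 15.7, 16.4, 26.8 and 25.1 CPM in the high boars. Its groups overlapped, and the log2 fold change of -0.35 (SE 0.21) was not called (edgeR adjusted p = 0.227).

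**Figure D1:**
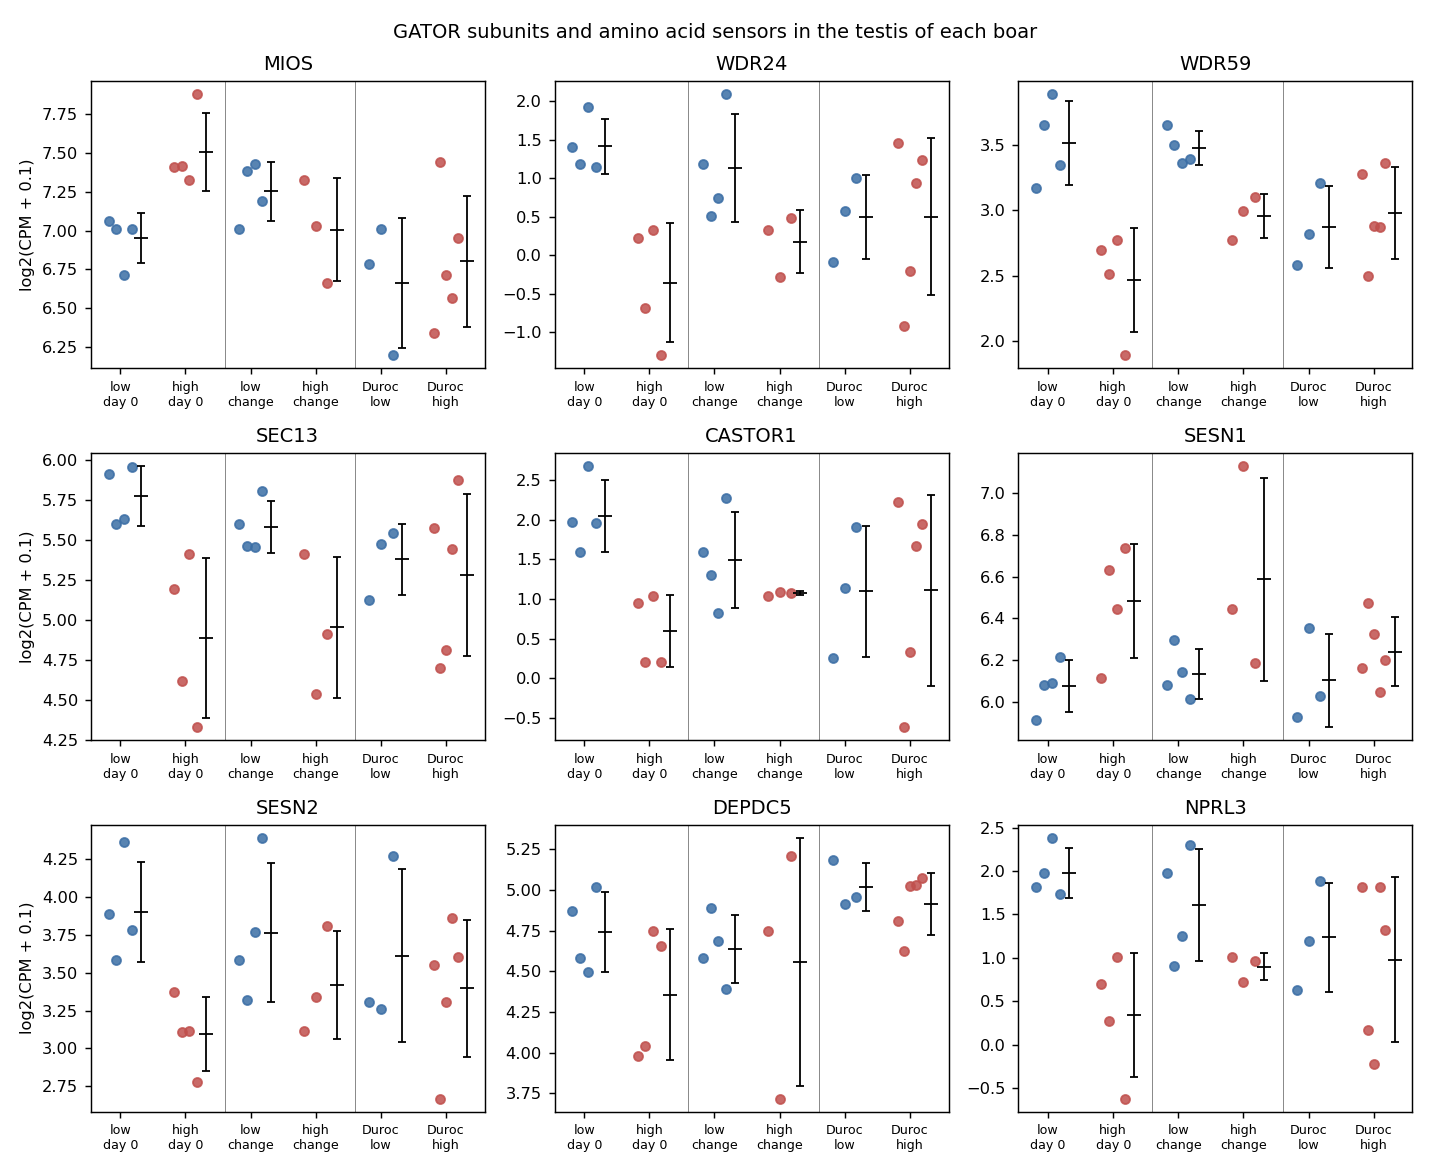
Level of each of the 9 genes, as log2(CPM + 0.1), in the 6 groups; points are boars (blue low, red high), and the black bars beside them give the mean ± SD. L2 and L7 appear in both Landrace contrasts. At day 0 the groups stand apart for 7 genes, and for 28.3% of all genes tested. The Duroc groups overlap for all 9, and stand apart for 1.38% of all genes tested. The difference between these effects was called for none of the 9.

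Levels on the log2(CPM + 0.1) scale did not overlap between the groups of contrast (i) for 7 of the 9 genes, and for 28.3% of all genes tested. Each of these 7 had an exact permutation p of 0.0286 (two-sided), the smallest that 70 assignments of the boars can give, and of 0.114 after adjustment over the 36 tests of 9 genes in 4 comparisons. For SESN1 and DEPDC5 the exact permutation p was 0.0571 and 0.200. At that floor, the 9 genes of this contrast alone could not have reached 0.05 after the adjustment.

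Markers of other cell types were compared between the same boars, where 15.8% of all genes tested were called lower. The summed level of 5 peritubular myoid cell markers ran from 49.1 to 110 CPM in the low and from 17.2 to 61.3 CPM in the high boars, and 2 of the 4 tested, DES and MYH11, were lower. Blood markers summed to between 1.66 and 19.8 CPM in the low and between 0.668 and 3.09 CPM in the high boars. Of 4 endothelial genes tested 1, TIE1, was lower, with sums from 23.3 to 37.5 CPM in the low and from 10.9 to 31.8 CPM in the high boars. Of 8 elongating spermatid genes 3 were lower, GAPDHS, TNP2 and PRM1, and their sums of 9735 to 13972 CPM and 11290 to 14682 CPM overlapped. The 6 spermatocyte genes summed to between 1068 and 1342 CPM in the low and between 1335 and 2080 CPM in the high boars, and none was called. None of the tested markers of spermatogonia, round spermatids, Sertoli cells, Leydig cells or macrophages was called. The part of cell composition in the results for the 9 genes was not tested.

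In contrast (iii) none of the 9 genes was called, as was none of the 12824 genes tested (0%) by edgeR's quasi-likelihood test, although 2540 genes had an unadjusted p under 0.05, and the likelihood ratio test and DESeq2 called 64 and 116 genes, none of them among the 9. L2 and L7 belong to both contrasts, so the comparisons are not independent. WDR24 stood at 2.17, 1.32, 1.57 and 4.16 CPM in L2, L9, L10 and L12 and at 1.15, 0.720 and 1.298 CPM in L7, L13 and L15. The high boars lay below the low boars, though L15 and L9 were almost level, and the log2 fold change was -1.11 (SE 0.42, edgeR adjusted p = 0.240).

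MIOS showed no such order in contrast (iii), with 129, 166, 172 and 146 CPM in the low and 160, 131 and 101 CPM in the high boars. The log2 fold change was -0.23 (SE 0.18, edgeR adjusted p = 0.449), on the other side of 0 from contrast (i). WDR59 and SEC13 did not overlap between the groups, at 10.2 to 12.4 against 6.72 to 8.45 CPM and at 43.8 to 55.7 against 23.1 to 42.5 CPM, with log2 fold changes of -0.53 and -0.58 (edgeR adjusted p = 0.240 for both). Thus 3 of the 9 genes had groups that did not overlap, and 16.2% of all genes tested. For these 3 the exact permutation p was 0.0571, the smallest that 35 assignments allow, so that no gene could reach 0.05 in this test. On library totals alone, without TMM, the exact permutation p of WDR24 was 0.114. The result for WDR24 in this test thus depended on the normalization.

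The sensors and GATOR1 overlapped in contrast (iii). NPRL3 had a log2 fold change of -0.83 (SE 0.35, edgeR adjusted p = 0.245), CASTOR1 of -0.53 (adjusted p = 0.364), SESN2 of -0.37 (adjusted p = 0.430), SESN1 of 0.50 (adjusted p = 0.244) and DEPDC5 of 0.03 (adjusted p = 0.952). The highest SESN1 level of all 21 boars, 140 CPM, was that of L13, which also had the lowest DEPDC5, 13.1 CPM. The median log2 fold change of the 9 genes was -0.53, against 0.00 over all genes tested. The 8 elongating spermatid genes summed to 11052 to 14205 CPM in the low and 6371 to 11861 CPM in the high boars. All 8 had a log2 fold change below 0, with a median of -0.53, and none was called. Sertoli cell sums ran from 194 to 220 CPM in the low and from 192 to 484 CPM in the high boars. The part of cell composition in contrast (iii) was not tested.

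In contrast (ii) the Duroc groups overlapped for each of the 9 genes, whereas 1.38% of the 13043 genes tested had groups that did not. None of the 9 was called, nor any other gene (0%), by the quasi-likelihood test, the likelihood ratio test or DESeq2, and 158 genes had an unadjusted p under 0.05 in the first of these. WDR24 was at 2.63, 0.428, 0.768, 1.82 and 2.26 CPM in D1 to D5 and at 0.839, 1.39 and 1.90 CPM in D6, D7 and D9. The high group thus held both the highest and the lowest Duroc boar, D1 and D2. MIOS was at 81.0, 174, 105, 94.6 and 124 CPM in the high and at 110, 129 and 73.4 CPM in the low Duroc boars, with D2 the highest of them all.

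The fitted log2 fold changes of contrast (ii) ran from -0.24 for SESN2 to 0.20 for CASTOR1, with a median of 0.12 (all genes tested, 0.04). Their 95% intervals were wide, from -0.92 to 1.301 for WDR24, from -1.03 to 1.43 for CASTOR1, from -1.17 to 0.90 for NPRL3 and from -0.35 to 0.66 for MIOS. The difference between the Duroc and the day 0 Landrace effects was tested as an interaction. None of the 9 genes, and none of 13533 genes (0%), was called by the quasi-likelihood test, with 2121 genes at an unadjusted p under 0.05. The unadjusted p was under 0.05 for 5 of the 9 genes: WDR24, WDR59, SEC13, CASTOR1 and NPRL3, each at an adjusted p of at least 0.317. For WDR24 the Duroc effect exceeded the Landrace effect by 1.98 (SE 0.75, edgeR adjusted p = 0.317), and for WDR59 by 1.17 (SE 0.36, edgeR adjusted p = 0.317).

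**Figure D2:**
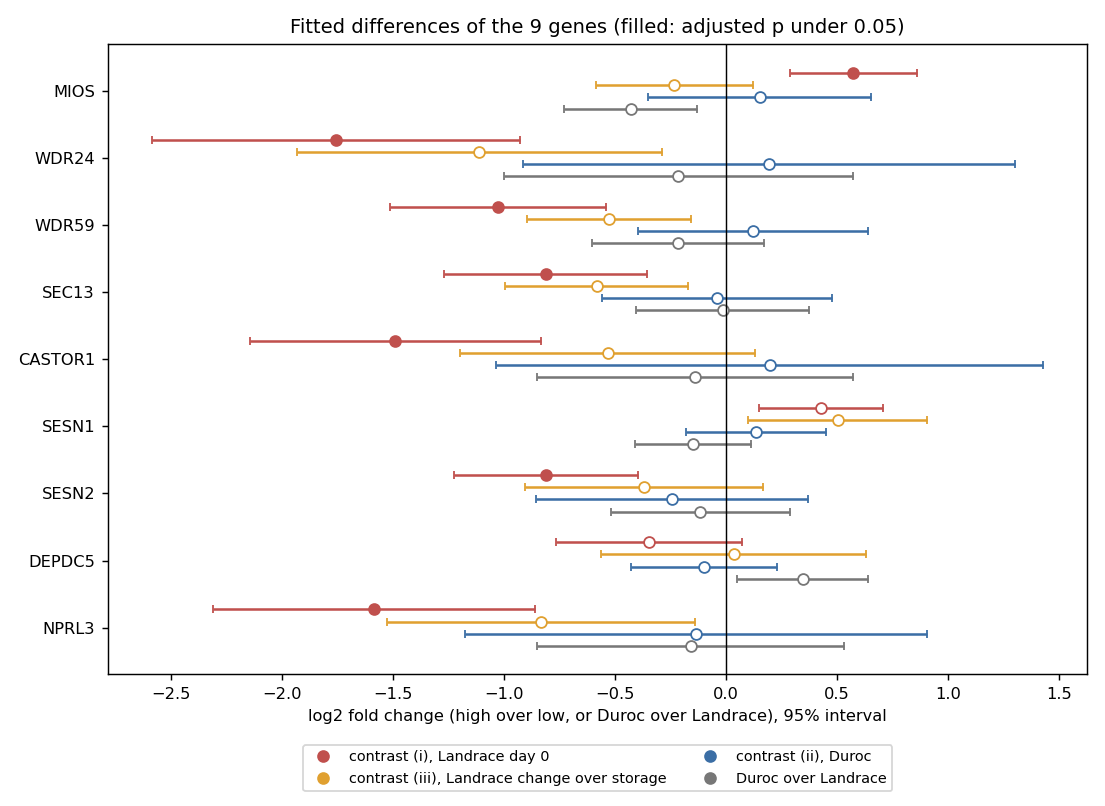
Fitted log2 fold changes of the 9 genes with 95% intervals in contrasts (i), (iii) and (ii), high over low, and of Duroc over Landrace; filled points had an adjusted p under 0.05. The filled points all belong to contrast (i), where MIOS lies at 0.57 and WDR24 at -1.76.

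Between the breeds, none of the 9 genes was called, against 2.88% of 13126 genes. MIOS ranged from 101 CPM through a median of 146 to 235 CPM in the 13 Landrace boars and from 73.4 through 108 to 174 CPM in the 8 Duroc boars. The ranges overlapped, with a log2 fold change of -0.43, Duroc over Landrace (SE 0.15, edgeR adjusted p = 0.164), and MIOS was called without D2, the Duroc boar with the most MIOS (log2 fold change -0.55, edgeR adjusted p = 0.0410). DEPDC5 had a median of 25.1 CPM in Landrace (13.1 to 36.9) and 31.7 CPM in Duroc (24.6 to 36.3), and a log2 fold change of 0.35 (SE 0.15, edgeR adjusted p = 0.322).

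The exact permutation p for the breed difference was 0.0132 for MIOS and 0.0159 for DEPDC5, and 0.114 for both after adjustment over the 36 tests. For the other 7 genes the fitted log2 fold change lay between -0.22 and -0.02, with edgeR adjusted p-values from 0.875 to 0.998. DEPDC5 varied less among the Duroc boars, where its highest level was 1.48 times the lowest, than among the Landrace boars, where the factor was 2.82; this difference in spread was not tested.

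The order of the group medians differed between MIOS and WDR24. For MIOS the high day 0 boars had the highest median, 170 CPM, followed by the low change boars; the Duroc boars had the lowest, 105 CPM in the high and 110 CPM in the low group. For WDR24 the low day 0 boars were highest at a median of 2.36 CPM and the high day 0 boars lowest at 0.793 CPM, with the low change boars (1.87), the Duroc boars (1.82 in the high and 1.39 in the low group) and the high change boars (1.15) between them. Neighbouring groups overlapped in both orders.

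Within a library, the level of MIOS relative to WDR24 does not depend on library scaling. It was 52.5, 59.2, 28.4 and 61.3 in L1 to L4 and 159, 328, 139 and 768 in L5 to L8. The day 0 groups stood apart, between L4, the highest low boar, and L7, the lowest high boar. Every high boar had more MIOS and less WDR24 than every low boar. The ratio therefore had to separate these groups, and its separation is no further result. The mean log2 ratio was 5.59 ± 0.52 in the low and 8.09 ± 1.13 in the high boars (SD, n = 4 each), a difference of 2.502 that ran from 2.01 to 2.83 when each boar was left out.

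The other groups overlapped in this ratio. It was 59.2, 126, 109 and 35.0 in L2, L9, L10 and L12 and 139, 181 and 77.9 in L7, L13 and L15, a difference of 0.78 in mean log2 ratio. In the Duroc boars it ranged from 30.8 in D1 to 406 in D2, both of the high group, and from 38.7 to 131 in the low group. These are read ratios of genes of unequal length and do not compare amounts of the 2 proteins or transcripts.

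**Figure D3:**
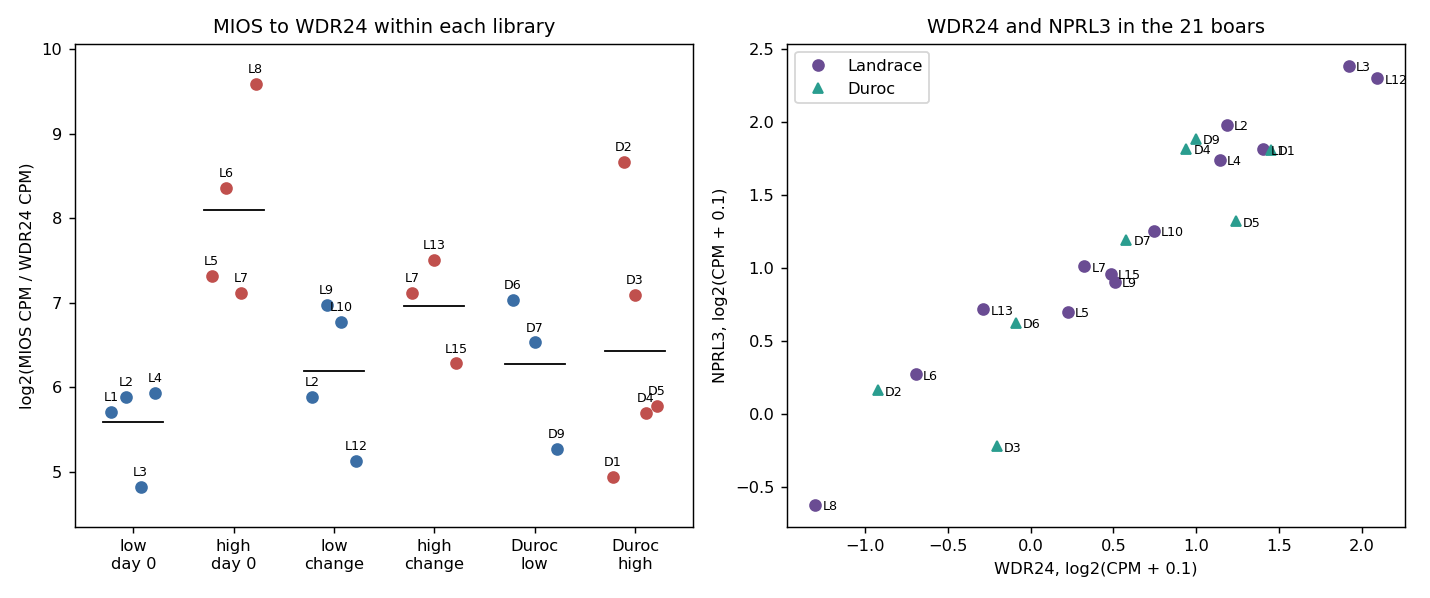
Left, log2 of MIOS CPM over WDR24 CPM in each library by group, with the group mean as a line (blue low, red high); the day 0 groups do not overlap, from 4.83 to 5.94 against 7.12 to 9.58. Right, NPRL3 against WDR24 as log2(CPM + 0.1) in the 13 Landrace (circles) and 8 Duroc boars (triangles), which rise together in both breeds.

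The lower genes of contrast (i) also moved together from boar to boar. The Landrace boars include the day 0 groups between which these genes differed. The part of that difference in the Landrace relations was not tested. Across the 13 Landrace boars, chosen as extremes of 4 overlapping groups, log2 CPM of WDR24 and NPRL3 had Pearson's r = 0.98 and Spearman's rho = 0.96 (permutation p = 1e-05, the smallest that 100000 permutations give, and 2e-05), and r = 0.96 without L8 and L12. In the 8 Duroc boars, whose groups overlapped, r was 0.88 and rho 0.79 (exact permutation p = 0.00518 and 0.0279), and r = 0.82 without D2 and D3. WDR24 and CASTOR1 had r = 0.93 and rho = 0.87 in Landrace (permutation p = 1e-05 and 0.00024) and r = 0.99 and rho = 0.98 in Duroc (exact permutation p = 4.96e-05 and 0.000397). Without the same boars, r was 0.91 and 0.99.

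MIOS and WDR24 were inversely related, with r = -0.63 and rho = -0.52 in Landrace (permutation p = 0.0220 and 0.0706) and r = -0.57 without L8 and L15. In Duroc r was -0.68 and rho -0.57 (exact permutation p = 0.0629 and 0.151), and r was -0.33 without D2 and D9, so that the Duroc relation rested largely on these boars. The sestrins were inversely related too, SESN1 to SESN2, with r = -0.67 and rho = -0.80 in Landrace (permutation p = 0.0113 and 0.00163; r = -0.74 without L13 and L8) and r = -0.69 and rho = -0.62 in Duroc (exact permutation p = 0.0534 and 0.115; r = -0.93 without D2 and D6). Adjusted over these 8 relations, the p of Pearson's r was 4e-05 for both Landrace pairs of WDR24 with NPRL3 and CASTOR1, 0.0104 and 0.000132 for the same pairs in Duroc, 0.0293 and 0.0629 for MIOS with WDR24, and 0.0181 and 0.0610 for the sestrins. The points of 1 breed share the library preparation and the normalization.

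Such covariation was common in these libraries. Of 11045 other named genes, 38 were more like WDR24 than NPRL3 was over the Landrace boars, and CASTOR1 ranked at place 653, SESN2 at 796, SEC13 at 1117 and WDR59 at 1559. The 4 genes most like WDR24 were STRN4, GEMIN4, KCTD13 and KIFC3, with r of 0.99 each in Landrace and from 0.89 to 0.97 in Duroc. The 4 most like MIOS were CENPF, CFAP298, CCDC88A and CRYBG3, with r from 0.90 to 0.92 in Landrace and from 0.45 to 0.82 in Duroc. The member most like MIOS was SESN1, at place 3216 (r = 0.33 in Landrace and 0.69 in Duroc). For likeness to WDR24, MIOS stood at place 8633, so that many genes were more inversely related to WDR24 than MIOS was.

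WDR24 and NPRL3 lie 388 kb apart on chromosome 3. Of the 18 tested and placed genes within 500 kb of WDR24, all 18 had a log2 fold change below 0 in contrast (i) and 12 were called lower, with a median of -1.37. Around NPRL3 these numbers were 16 and 10 of 18 and -1.12. Over all genes tested, 47.9% had a log2 fold change below 0, 15.8% were called lower and 4.82% higher. The windows overlap, and each gene counts among the neighbours of the other. TSC2 and MLST8, further genes of the mTORC1 pathway, lie 1.15 and 1.299 Mb from WDR24 and were lower as well, while MEIOB, a meiosis gene 0.952 Mb from WDR24, had a log2 fold change of 0.05 (edgeR adjusted p = 0.804). Around CASTOR1, 7 of 13 genes were called lower, and around MIOS 1 of 5 was called, higher. Around the other lower genes the counts were smaller: 1 of 9 for WDR59, 3 of 14 for SEC13 and 1 of 17 for SESN2. A further 1 of the 17 around SESN2 was called higher. The medians of these neighbours were -0.03 for WDR59, -0.23 for SEC13 and 0.16 for SESN2. In contrast (ii) the median of the neighbours of WDR24 was 0.03. The part of chromosomal position in the results was not tested.

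The other genes of nutrient sensing were counted in contrast (i) from lists of known pathway members, to be read against the 15.8% of all genes tested that were called lower and the 4.82% called higher. With so few genes in a list, a count near these shares is no result about the list. KICSTOR, which tethers GATOR1 to the lysosome, had 1 of the 3 genes reported here lower. KICS2 had a log2 fold change of -0.62 (SE 0.19, edgeR adjusted p = 0.0407), and the values of ITFG2 (-0.58, adjusted p = 0.0642) and KPTN (-0.19, adjusted p = 0.596) did not pass. The subunits of mTORC1 and mTORC2 had 4 of 7 genes lower, led by MLST8 (-1.32), RPTOR (-1.15) and PRR5L (-0.87). The kinase MTOR itself was the fourth (-0.83, edgeR adjusted p = 0.0208).

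Against the same 15.8%, the Rag GTPases, Ragulator and their regulators had 1 of 11 genes lower, FLCN (-1.31), a GTPase activator for the Rag proteins, and none higher, with a median of 0.31. Of the TSC complex and RHEB 1 of 3 genes was lower, TSC2 (-1.14), which restrains RHEB. Among targets of mTORC1, 3 of 10 were lower: ULK1 (-1.19), LPIN1 (-0.53) and LARP1 (-0.43). Of the amino acid transporters 4 of 8 were lower, including both chains of the leucine carrier, SLC7A5 (-1.35) and SLC3A2 (-0.83), and the glutamine carrier SLC1A5 (-1.21). The ubiquitin ligase RNF167, which acts on SESN2, was lower (-0.53), as 1 of 2 such genes.

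SEC13 also serves complexes outside GATOR2. The COPII coat had 1 of 9 genes lower, SEC16A (-1.26), with a median of -0.04, and the Y complex of the nuclear pore had 1 of 8 higher, NUP37 (0.86), with a median of 0.29. Over all genes tested 15.8% were called lower and 4.82% higher, and the difference between the lists was not tested. No gene was called in the lists of further sensors (3 tested; LARS1 had the smallest p, with a log2 fold change of 0.39), of the ATF4 response to amino acid lack (4 tested; DDIT4, -0.48) or of p53 and FOXO factors that induce sestrins (4 tested; MDM2, 0.45). CASTOR2 had too few reads to be tested in this contrast, and BMT2 was not analysed here.

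**Figure D4:**
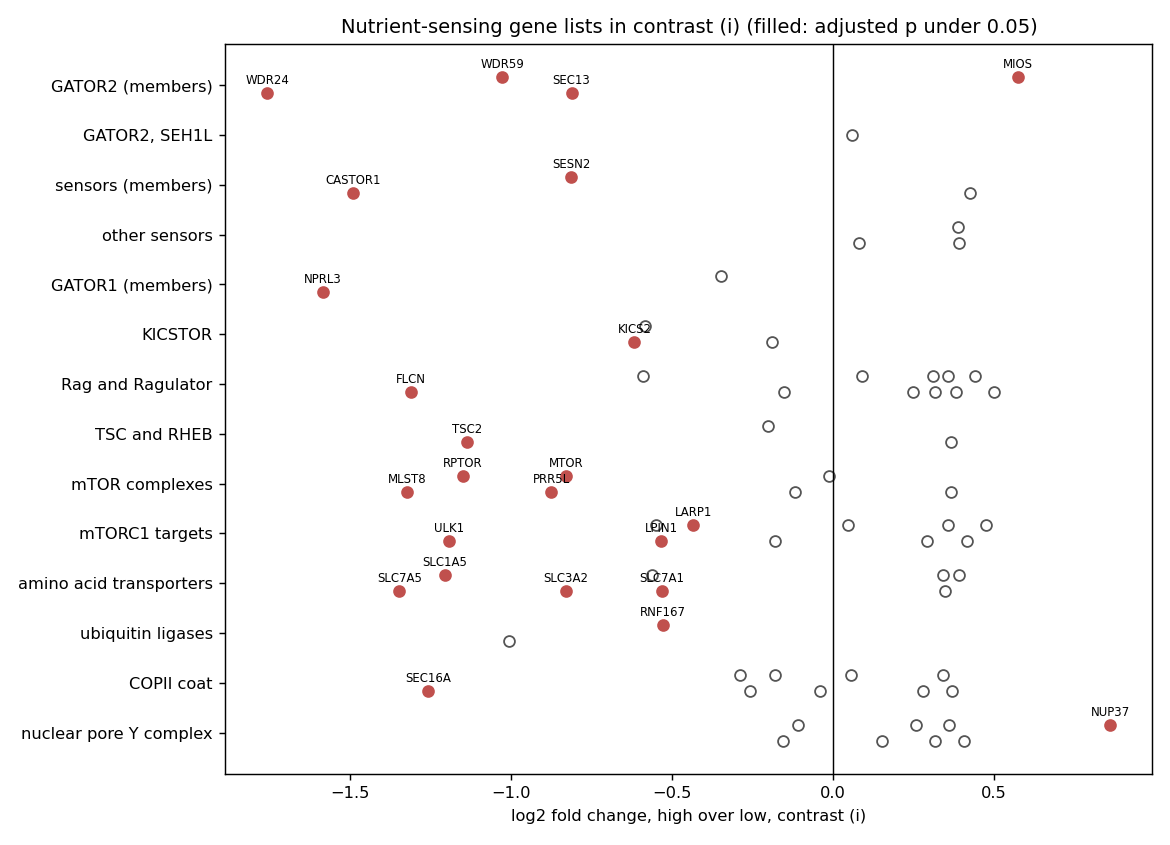
Log2 fold change (high over low) in contrast (i) of each tested gene in 14 lists of the nutrient-sensing pathway and of complexes that share SEC13; filled, named points had an adjusted p under 0.05. MIOS and NUP37 are the only filled points above 0, and WDR24 has the lowest value.

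In contrasts (iii) and (ii) none of these genes was called. The smallest p of the pathway lists in contrast (iii) was that of the mTORC1 target RPS6KB1 (log2 fold change 0.61, edgeR adjusted p = 0.240), and in contrast (ii) that of the cystine carrier SLC7A11 (0.67, edgeR adjusted p = 1.0). SESN3 had log2 fold changes of 0.06 and -0.16 in these contrasts, and SEH1L of 0.03 and -0.15. Between the breeds 1 gene of the pathway lists was called, LAMTOR3, a subunit of Ragulator (log2 fold change -0.54, Duroc over Landrace, SE 0.14, edgeR adjusted p = 0.0387).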

How the data were processed

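Testis RNA of 21 boars was sequenced as stranded single reads. Per the study's methods and the labels, the authors trimmed reads with Trimmomatic 0.36, aligned them to Sscrofa11.1 with STAR, counted reverse-stranded reads per Ensembl gene with HTSeq, and used edgeR 3.12.1. The deposited values are the authors' raw counts per gene, 1 file per boar. The counter's lines for unassigned reads, 29.4 to 39.0% of each library's total, were left out of library sizes and tests.

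The analysis used edgeR 4.0.16 under R 4.3.3 (quasi-likelihood test, TMM, Benjamini-Hochberg over all genes tested, threshold 0.05). A gene was tested where 4 or more libraries of a contrast, or 8 of the 21 for breed, reached 1 CPM. Intervals are normal 95% intervals from the standard error, which came from the fold change and its test statistic. Printed CPM use TMM over all 21 libraries, and single genes were compared with two-sided exact permutation tests of log2(CPM + 0.1), with scipy 1.17.1. Groups came from the labels. Gene names came from identifier tables that named 14857 genes, and positions from RefSeq's annotation of Sscrofa11.1. No genome of that build was used, so no sequence is shown.

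The members, gene lists and tests were chosen with earlier results of these data known. Beside the members, genes were named by a rule: per list, at most the 3 called genes with the largest change, or else the smallest p; SEH1L and the KICSTOR and other sensor genes; and the 4 genes most like MIOS and WDR24 over the Landrace boars. MTOR, MEIOB and the markers of the tissue check were named after their values were seen. Some results are not reported here. On simulated data, the tests recovered most of the genes changed by known amounts. Alternatives were a likelihood ratio test, DESeq2 1.42.0, other normalizations, no filter, a robust fit, leaving out boars, and covariates; the share of reads outside genes as a covariate was chosen after seeing the data. Depth bounds precision most for WDR24, CASTOR1 and NPRL3, with 25 to 531 reads per library.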

Additional observations from a re-analysis of the deposited data

Results flagged for a closer look

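Within the groups of 4 to 10 boars, 50 sets of values (the 9 genes and the MIOS to WDR24 ratio) were examined for a boar far from the others, of which chance would mark about 1 in 20, or 2.5. There were 2. MIOS in L3, at 105 CPM, stood below the other low boars of day 0, which lay between 129 and 134 CPM. MIOS in L8, at 235 CPM, stood above the other high boars of day 0, which lay between 160 and 170 CPM. Both gaps lie on the outer side of the group, away from the other group. The log2 fold change of MIOS in contrast (i) was 0.46 without L3 and 0.46 without L8. Without L3 its edgeR adjusted p was 0.0823, and 1 gene of the whole table was called. Without L8 its edgeR adjusted p was 0.0405, and 1228 genes were called.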

How the results depend on the processing

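In contrast (i), 7 of the 9 genes were called by the quasi-likelihood test and 8, with SESN1, by DESeq2, the likelihood ratio test, the robust fit, the fit without a CPM filter and normalization by relative log expression; upper quartile normalization, all 13 Landrace boars in 1 fit, leaving out the shared boars and the covariate for reads outside genes gave 7. Of all genes tested, the quasi-likelihood test called 20.7%, DESeq2 30.2%, the likelihood ratio test 26.4% and the robust fit 21.4%. Relative log expression called 22.1%, upper quartile normalization 19.5% and the fit without a CPM filter 13.5%. These values were 16.5% with all 13 Landrace boars, 14.5% without the shared boars and 14.7% with the covariate. The lower share of all calls was 76.7%, against 90.7% with upper quartile normalization and 62.8% with DESeq2. Leaving out 1 boar gave 0 to 8 members and 1 to 3764 genes called in contrast (i), against 2682; 966 genes were called without L1, 1481 without L4, 1228 without L8 and 1 without L3 or L6, and no direction of the 9 genes changed. DEPDC5 was called under none of these. For contrast (iii), 64 genes were called by the likelihood ratio test, 116 by DESeq2, 1 without the CPM filter, 2 with the covariate and 0 to 1 without 1 boar; for the difference of contrasts (i) and (ii) these were 3 and 12, and 0 to 2 without 1 boar; for contrast (ii) 0 to 2 without 1 boar. No member was called in any of these. The breed comparison gave 378 genes, 204 with day 0 boars alone, and 0 to 1 members without 1 boar. Signs near 0 turned, and the cause was not tested. Without 1 boar, DEPDC5 in contrast (iii) ran from -0.32 to 0.37 (log2 fold change; -0.024 without L2 and L7). In contrast (ii), WDR24 ran from -0.090 to 0.50, CASTOR1 from -0.14 to 0.71, MIOS from -0.045 to 0.33, SEC13 from -0.21 to 0.085, NPRL3 from -0.40 to 0.27, WDR59 from -0.015 to 0.31, SESN2 from -0.42 to 0.18 and the log2 ratio of MIOS to WDR24 from -0.40 to 0.53; without TMM, the difference of mean log2 CPM was -0.0073 for WDR24 and -0.0026 for CASTOR1. For breed, SEC13 ran from -0.10 to 0.059 and CASTOR1 from -0.30 to 0.038; SEC13 was 0.0022 with upper quartile normalization, and with high or low as a covariate WDR24 was 0.19, SEC13 0.14, CASTOR1 0.11 and NPRL3 0.15. The planned correction for GC content and length was not run, since no genome was given. No paired analysis was possible because the labels give no replicate number that groups share.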
